A study of Homo sapiens with 6 samples.

Results

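Translation initiation factors were taken as the rows of the count table whose symbol begins with EIF1 to EIF6, leaving out the EIF5A genes, the eIF2 kinases (EIF2AK) and symbols that end like a pseudogene. The eIF4E-binding proteins EIF4EBP1, EIF4EBP2 and EIF4EBP3 were kept. The rule found 52 of the 59653 rows. Of these, 48 are genes of known complexes and 4 are other symbols (EIF1AD, EIF1AX-AS1, EIF1B-AS1 and EIF3J-DT). A filter that asked for 5 or more normalized counts in 3 or more libraries left 49 of them to be tested among 19008 genes. The 3 left untested were EIF1AY and EIF1AX-AS1, at 0 counts in all 6 libraries, and EIF4E1B, with no more than 1 count in any library.

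Messenger RNA was sequenced from SK-OV3, an established human ovarian cancer cell line labelled as wildtype, 48 h after transfection with 50 nM siRNA. The authors state that this line lacks p53 expression. The siPVT1 group (n = 3) received a single siRNA pool against the long noncoding RNA PVT1, and the siControl group (n = 3) a Lincode non-targeting pool, both in full serum medium. The comparison asks which transcripts differ between cells given the PVT1 pool and cells given the control pool. With a single pool against PVT1, an effect of lower PVT1 cannot be told apart from other effects of that pool. The labels do not say that replicates are separate cultures, so p-values measure only the spread between these libraries, which may be technical.

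Initiation is the step at which a ribosome is brought to the start codon of an mRNA. The factor eIF2 carries the initiator tRNA as a GTP-bound complex and is recharged by eIF2B, while eIF1, eIF1A, eIF3 and eIF5 bind the small ribosomal subunit and guide it along the leader. The cap-binding complex eIF4F joins the cap-binding protein eIF4E, the scaffold eIF4G and the helicase eIF4A, and the eIF4E-binding proteins, which are controlled by mTOR, compete with eIF4G for eIF4E. Both eIF4E and eIF2 are long-known points of control in growing tumour cells.

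Total counts ran from 28383171 to 35059576 per library. PVT1 was lower in every siPVT1 library, at 3298, 4090 and 3377 normalized counts in siControl and 2350, 2111 and 2062 in siPVT1 (log2 fold change -0.72, standard error 0.0967, edgeR quasi-likelihood test, Benjamini-Hochberg adjusted p = 0.000342). The level of PVT1 fell by 39.4%, so the libraries called silenced below still held PVT1. All 6 carcinoma markers were detected, and their summed normalized count was 19939 to 22165 in siControl and 27944 to 31078 in siPVT1. A list of 5 markers of other cell types summed to 50.8 to 71.7 in siControl and to 286 to 337 in siPVT1. Most of that sum was PECAM1, with CD3E at 0 in all libraries and PTPRC at no more than 2.02. The part of this difference in the results was not tested, and in bulk RNA a change in the number of cells of a type and a change in RNA per cell cannot be told apart.

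Most initiation factor genes were lower in siPVT1 than in siControl. Of the 49 tested, 26 (53.1%) were lower, where 28.4% of all genes tested were, and 5 (10.2%) were higher, where 29.5% of all genes were. The median log2 fold change of the 49 was -0.30, against 0.0014 over all genes tested. Before any scaling, all members together took 1.38% to 1.42% of the counts of a siControl library and 1.002% to 1.05% of those of a siPVT1 library. After TMM scaling, the log2 ratio of their summed counts was -0.32. Without regard to the test, every siPVT1 library lay below every siControl library in 29 members (59.2%, against 32.3% of all genes) and above in 7 (14.3%, against 33.2%). The changes were mostly below 2-fold. Past an absolute log2 fold change of 1 as well, 3 members (6.12%) were lower, where 9.64% of all genes were, and none was higher, where 11.8% of all genes were. A gene is said here to rise or fall only where its adjusted p was under 0.05 over all genes tested. A fold change is siPVT1 over siControl after TMM scaling.

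**Figure D1:**
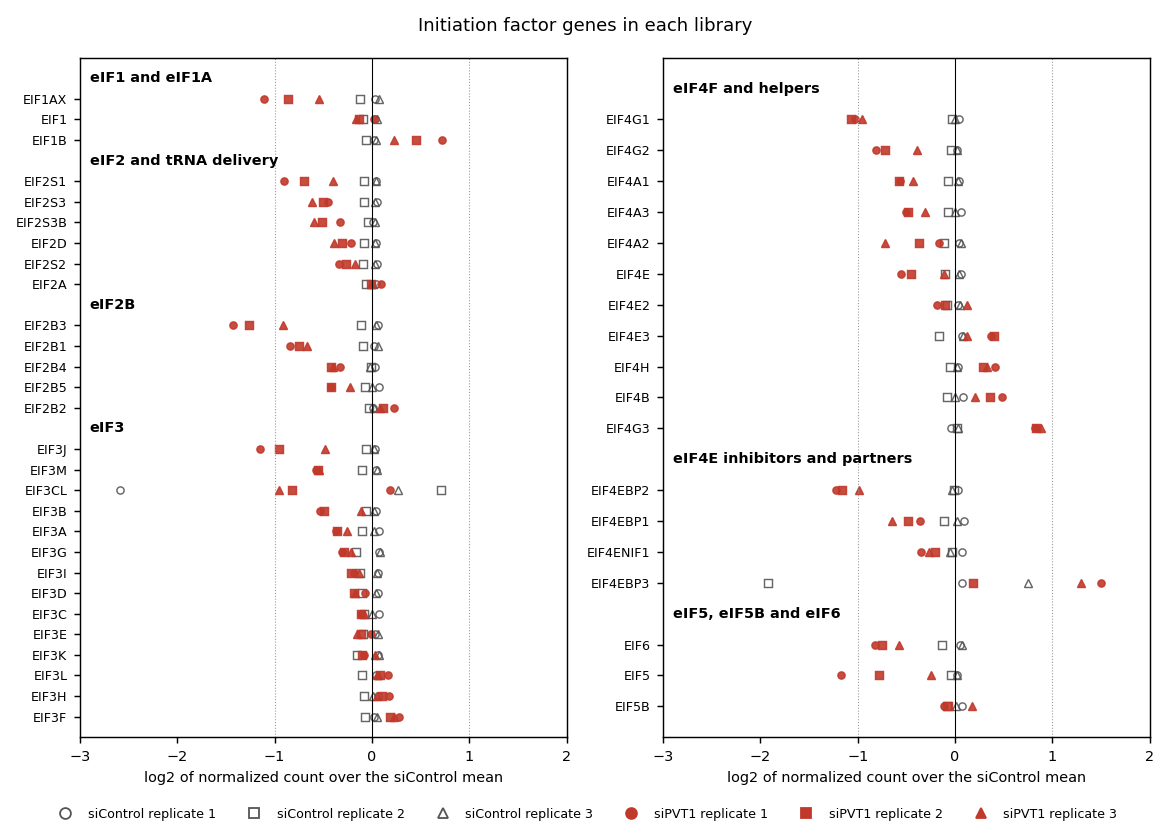
Each point is 1 library, placed on the horizontal axis by the log2 of its normalized count over the siControl mean of that gene, with genes in rows grouped by complex (open grey, siControl; filled red, siPVT1; circle, square and triangle, replicates 1, 2 and 3). The red points lie left of the grey ones without overlap in 29 of the 49 tested members, counting EIF1B-AS1, which with 2 other symbols is not drawn.

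Scaling sets how many members sit on each side of zero. With scaling by the total count, the median of all genes tested moved from 0.0014 to -0.15 and that of the members from -0.30 to -0.45, so that the median of the members was below that of all genes on both scales. Under that scaling the direction of EIF1AD, EIF2A, EIF2B2, EIF3H, EIF3J-DT, EIF3L and EIF5B turned from higher to lower, and none of these 7 had passed the test. The library of siPVT1 replicate 3 stood nearest to siControl in 19 of the 26 members that fell (73.1%) and in 59.6% of all genes that fell. Without that library 29 members were lower and 7 higher, with a median log2 fold change of -0.29.

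By complex, the members that fell were spread over all 7 groups, and those that rose were in 3 of them. The guanine nucleotide exchange factor eIF2B, eIF2 with its relatives, and the group of eIF5, eIF5B and eIF6 had 4 of 5, 5 of 6 and 2 of 3 genes lower and none higher. The eIF2 count holds both EIF2S3 and its near copy EIF2S3B, whose reads cannot be told apart with certainty. In eIF3, the largest complex, 5 of 14 were lower, 1 was higher and 8 did not pass the test. In eIF4F and its helpers 6 of 11 were lower and 3 higher. Over all genes tested 28.4% were lower and 29.5% higher, so the count that rose in this group was near the background. The other 2 members that rose were EIF1B and EIF3F.

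**Figure D2:**
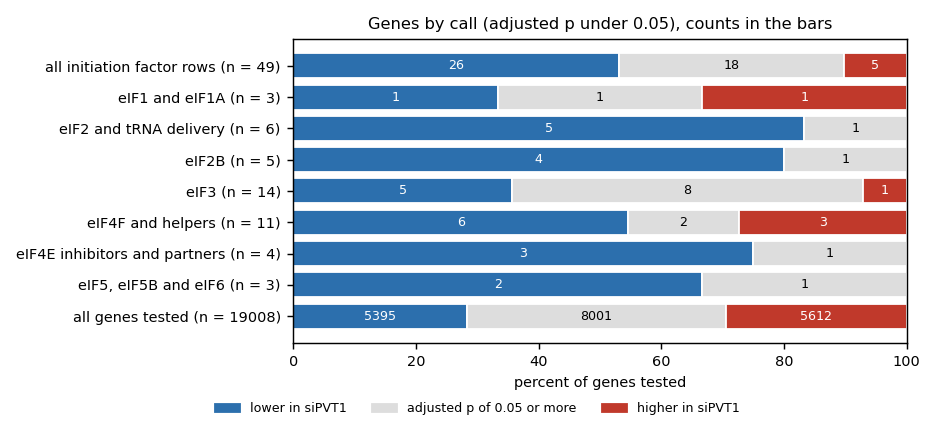
Bars give the percent of tested genes of each complex that were lower in siPVT1 (blue), did not pass an adjusted p of 0.05 (grey) or were higher (red), with the gene counts written in the bars. Blue takes up 53.1% of the bar for all initiation factor rows and 28.4% of that for all genes tested.

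Within eIF4F and its helpers, the largest fall was in EIF4G1, which encodes the main eIF4G scaffold (chromosome 3, 184314495 to 184335358, plus strand, GRCh38). Its normalized counts were 35204, 33487 and 34154 in siControl and 16841, 16362 and 17702 in siPVT1. Every silenced library lay far below every control library, and replicates were close within both groups. The log2 fold change was -1.01 (standard error 0.0571, edgeR quasi-likelihood test, Benjamini-Hochberg adjusted p = 4.4e-06), and counts fell by 50.5%. EIF4G1 was also the member just inside the fold threshold, and EIF4G3 (0.85) the nearest outside it.

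EIF4G3, the paralogous scaffold (chromosome 1, 20806292 to 21177285, minus strand), went the other way. It had 2784, 2911 and 2928 normalized counts in siControl and 5089, 5118 and 5286 in siPVT1, with replicates within a narrow band in both groups. The fitted log2 change was 0.85 (standard error 0.0548, edgeR's Benjamini-Hochberg adjusted p = 8.49e-06), the highest of the members that passed the test. Per kilobase of the canonical transcript, EIF4G3 stood at 0.0709 ± 0.0036 (SD, n = 3) of the level of EIF4G1 in siControl and at 0.257 ± 0.0062 in siPVT1, and the 2 groups did not overlap (exact permutation test, two-sided, p = 0.1, the smallest that 3 against 3 libraries can give). The counts of both genes together fell from 37156 ± 798 to 22133 ± 775 (SD, n = 3), since EIF4G1 remained the more abundant. The third relative, EIF4G2, which lacks the eIF4E-binding region and serves cap-independent initiation, also fell, with a log2 fold change of -0.63 and a standard error of 0.104.

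The helicase genes fell. EIF4A1 went from 44915 ± 1892 to 31318 ± 1772 normalized counts (SD, n = 3; log2 fold change -0.52, standard error 0.0645), and EIF4A3, whose product is part of the exon junction complex, fell by 25.8% (-0.43). EIF4A2 had 20532, 18441 and 20831 counts in siControl and 17823, 15366 and 12064 in siPVT1, and here siPVT1 replicate 3 was the lowest of the silenced libraries, the reverse of its place in most members. Its log2 fold change was -0.40 (Benjamini-Hochberg adjusted p = 0.0281 by edgeR). The call of EIF4A2 was lost without siControl replicate 1 (adjusted p = 0.0792 by edgeR), siControl replicate 3 (0.0827) or siPVT1 replicate 2 (0.0603). The ratio of EIF4A2 to EIF4A1 per kilobase was 0.413 ± 0.011 in siControl and 0.453 ± 0.107 in siPVT1 (SD, n = 3), with overlapping groups (exact permutation test, two-sided, p = 0.7). In contrast, the RNA-binding partners that stimulate eIF4A both rose. EIF4B had a log2 fold change of 0.35 (standard error 0.083) and EIF4H one of 0.34 (standard error 0.0583).

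EIF4E, the gene of the cap-binding protein, was moderately lower. Its normalized counts were 2585, 2312 and 2556 in siControl and 1689, 1818 and 2298 in siPVT1, so that siPVT1 replicate 3 came close to siControl replicate 2 without crossing it. In log2 terms the change was -0.36 (standard error 0.114, edgeR quasi-likelihood test, Benjamini-Hochberg adjusted p = 0.026). The call was lost in 3 of the 6 fits that each left out 1 library, with adjusted p = 0.0802 without siControl replicate 1, 0.0752 without siControl replicate 3 and 0.0803 without siPVT1 replicate 2. The cap-binding relatives EIF4E2 (-0.05, standard error 0.0867) and EIF4E3 (0.30, standard error 0.121) did not pass the test.

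Of the inhibitors of eIF4E, EIF4EBP2 fell most (chromosome 10, 70404145 to 70428618, plus strand). It had 5205, 5054 and 4989 normalized counts in siControl and 2170, 2276 and 2570 in siPVT1, well separated. On the log2 scale the difference was -1.12 (standard error 0.0739, edgeR quasi-likelihood test, Benjamini-Hochberg adjusted p = 9.26e-06). EIF4EBP1, the best-studied target of mTOR among the binding proteins, had 2128, 1851 and 2028 counts in siControl and 1561, 1431 and 1281 in siPVT1, also without overlap (-0.49, standard error 0.0898, adjusted p = 0.00183 by the same edgeR test). EIF4EBP3 was rare, at 16.2, 4.04 and 25.9 normalized counts in siControl and 43.4, 17.5 and 37.6 in siPVT1, and the groups overlapped. Its log2 fold change of 1.08, the highest of any member, had a standard error of 0.557 and did not pass the test (edgeR's Benjamini-Hochberg adjusted p = 0.132). EIF4ENIF1, which encodes the eIF4E transporter 4E-T, fell too (-0.27, standard error 0.0795), though not without siControl replicate 1 (adjusted p = 0.0771 by edgeR). Per kilobase, EIF4E stood at 1024 ± 61.7 and 797 ± 132 normalized counts (SD, n = 3) in siControl and siPVT1, EIF4EBP1 at 2421 ± 170.0 and 1722 ± 169.8, and EIF4EBP2 at 679 ± 14.8 and 312 ± 27.6. In both groups EIF4EBP1 was therefore the more abundant of these transcripts, and EIF4EBP2 lay below EIF4E.

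**Figure D3:**
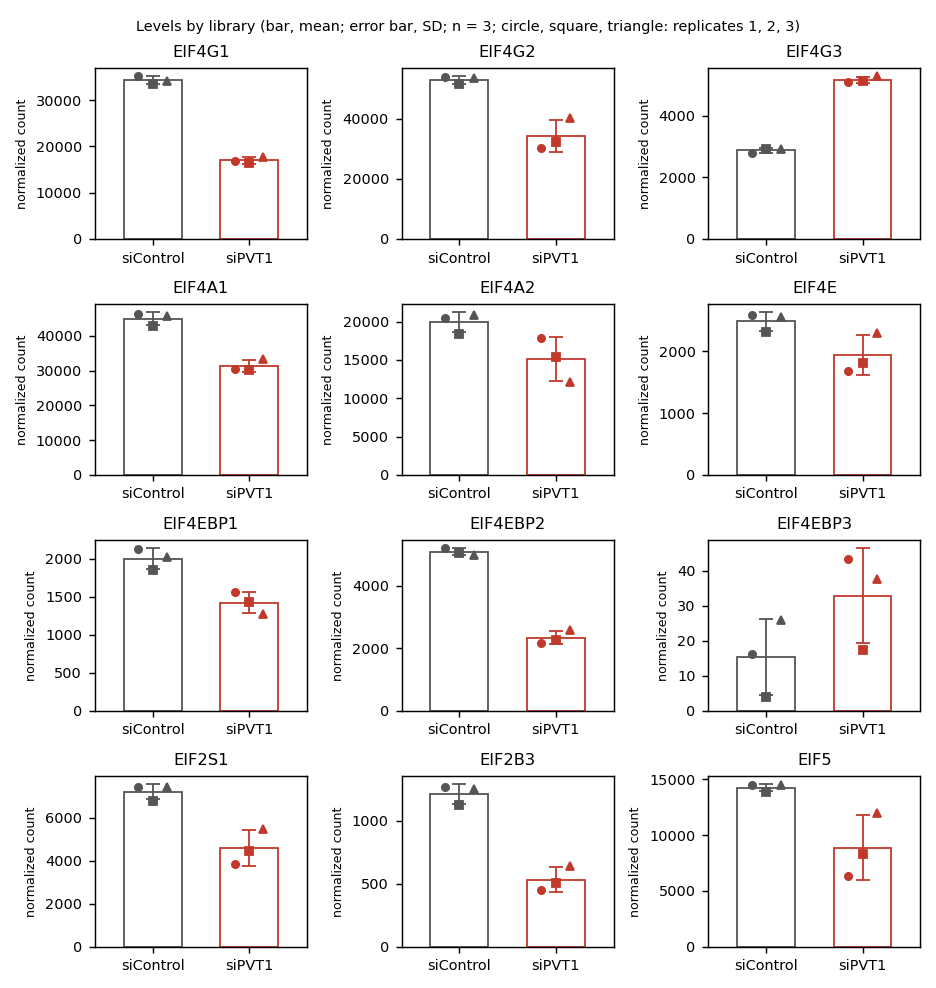
Bars give the mean normalized count in siControl and siPVT1, error bars the SD (n = 3) and symbols the libraries (circle, square and triangle, replicates 1, 2 and 3), for 12 genes of eIF4F, its inhibitors, eIF2, eIF2B and eIF5. EIF4G3 and EIF4EBP3 have the taller bar in siPVT1, and in EIF5 the 3 silenced libraries are spread from 6345 to 12012.

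Genes of eIF2, which brings the initiator tRNA, were lower as a group. EIF2S1, the alpha subunit that stress kinases phosphorylate, had 7434, 6811 and 7426 normalized counts in siControl and 3864, 4449 and 5491 in siPVT1. The groups did not overlap, and siPVT1 replicate 3 was again the nearest to siControl. The log2 fold change was -0.65 (standard error 0.119, edgeR quasi-likelihood test, Benjamini-Hochberg adjusted p = 0.00186). The beta subunit EIF2S2 (-0.26) and the gamma subunit EIF2S3 (-0.52) also fell, as did EIF2D (-0.30), which can deliver tRNA without GTP. EIF2S3B, a near copy of EIF2S3 on an autosome, was called lower (-0.48), but its reads cannot be told apart with certainty from those of EIF2S3, and the sum of both fell from 12641 ± 603 to 8808 ± 520.0 (SD, n = 3). EIF2A, an alternative carrier of initiator tRNA and not the alpha subunit despite its symbol, had 6965, 6472 and 6825 counts in siControl and 7211, 6732 and 6713 in siPVT1. Those values overlapped (log2 fold change 0.028, standard error 0.0592), and the sign turned to lower with total count scaling.

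The exchange factor eIF2B, which restores GTP on eIF2, held the lowest of all members. EIF2B3, the gamma subunit (chromosome 1, 44850522 to 44986722, minus strand), had 1263, 1119 and 1249 normalized counts in siControl and 449, 503 and 642 in siPVT1. No silenced library came near the control range. The fitted log2 change was -1.19 (standard error 0.13, edgeR quasi-likelihood test, Benjamini-Hochberg adjusted p = 0.000114). The regulatory alpha subunit EIF2B1 fell by 0.75 on the log2 scale, EIF2B4 (delta) by 0.38 and the catalytic epsilon subunit EIF2B5 by 0.35. EIF2B2, the beta subunit, was the exception, at 899, 871 and 904 counts in siControl and 1045, 964 and 942 in siPVT1. Its silenced libraries were all above the control ones, yet the log2 fold change of 0.14 did not pass the test (standard error 0.0694, edgeR's Benjamini-Hochberg adjusted p = 0.114). The log2 fold changes of the 5 subunits of this complex thus ran from -1.19 to 0.14.

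The eIF3 complex, which bridges the small subunit and eIF4G, moved little as a whole, with a median log2 fold change of -0.16. Its lowest member was EIF3J, a loosely bound subunit that contacts the decoding site (chromosome 15, 44537125 to 44563029, plus strand). EIF3J had 5866, 5496 and 5803 normalized counts in siControl and 2572, 2945 and 4088 in siPVT1, with the silenced libraries spread but all lower. In log2 terms the change was -0.84 (standard error 0.152, edgeR quasi-likelihood test, Benjamini-Hochberg adjusted p = 0.00176). EIF3M (-0.56), EIF3B (-0.37), EIF3A (-0.33) and EIF3G (-0.27) fell as well. EIF3A and EIF3B belong to the core scaffold. EIF3B lost its call in 3 of 6 fits that left out 1 library (adjusted p = 0.0626, 0.0566 and 0.0681 without siControl replicate 1, siControl replicate 3 and siPVT1 replicate 2), and EIF3G in 2 (adjusted p = 0.065 and 0.0666 without siControl replicates 1 and 3).

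EIF3F was the 1 eIF3 gene that rose. It had 5140.5, 4814 and 5238 normalized counts in siControl and 6146, 5752 and 5926 in siPVT1, without overlap. The log2 fold change of 0.23 (standard error 0.0593, edgeR quasi-likelihood test, Benjamini-Hochberg adjusted p = 0.0103) shrank to 0.081 and did not pass the test with total count scaling (adjusted p = 0.193). EIF3I (-0.18, adjusted p = 0.0558 by edgeR) lay next to the threshold. EIF3C, EIF3D, EIF3E, EIF3H, EIF3K and EIF3L ranged from -0.14 to 0.11 and did not pass the test. EIF3CL, a near copy of EIF3C, had 40.9, 402 and 297 counts in siControl and 280, 140 and 127 in siPVT1, as large a spread within groups as between them, and the sum of both genes was 18477 ± 768 and 17207 ± 161 (SD, n = 3).

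Among the factors of scanning and start selection, EIF1AX fell, EIF1B rose and EIF1 did not pass the test. EIF1AX (eIF1A, X-linked) fell from 5317, 4786 and 5480 to 2417, 2867 and 3570 normalized counts, with no overlap. On the log2 scale the difference was -0.81 (standard error 0.132, edgeR quasi-likelihood test, Benjamini-Hochberg adjusted p = 0.000973). EIF1, the gatekeeper of start codon choice, did not pass the test (-0.09, standard error 0.071). EIF1B, its less abundant paralog, rose from 939, 885 and 948 to 1523, 1266 and 1080 counts, all above the control range. Its log2 fold change was 0.48 (standard error 0.119, edgeR quasi-likelihood test, Benjamini-Hochberg adjusted p = 0.00878). The ratio of EIF1B to EIF1 per kilobase was 0.113 ± 0.0017 in siControl and 0.166 ± 0.018 in siPVT1 (SD, n = 3), without overlap (exact permutation test, two-sided, p = 0.1).

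Of the late-acting factors, EIF6, which keeps free large subunits from joining, fell from 4573, 4013 and 4617 to 2491, 2614 and 2946 normalized counts. All silenced libraries lay below all controls. The log2 fold change was -0.71 (standard error 0.0855, edgeR quasi-likelihood test, Benjamini-Hochberg adjusted p = 0.000188). EIF5, the GTPase activator of eIF2, was at 14434, 13894 and 14434 in siControl and at 6345, 8268 and 12012 in siPVT1, where replicate 3 lay far above replicate 1. It passed the test (-0.68, standard error 0.196, adjusted p = 0.0168 by edgeR) and lost the call without siPVT1 replicate 2 (adjusted p = 0.0628). EIF5B, which joins the subunits, had 6762, 6109 and 6473 counts in siControl and 5947, 6132 and 7292 in siPVT1. The range of the silenced libraries enclosed that of the controls (log2 fold change 0.0022, standard error 0.087), and several other settings turned its sign.

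The other symbols did not pass the test. EIF1AD, a nuclear protein with an eIF1A-like domain, had a log2 fold change of 0.042 (standard error 0.123), and the transcript divergent from EIF3J, EIF3J-DT, one of 0.12 (standard error 0.104) while EIF3J itself fell. EIF1B-AS1, transcribed away from EIF1B, was at 46.7, 38.4 and 36.9 normalized counts in siControl and at 36.7, 18.6 and 19.7 in siPVT1. Its silenced libraries were all below the controls, by a narrow margin for replicate 1 (-0.71, standard error 0.301, adjusted p = 0.0757 by edgeR).

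Start-site bases are shown because mRNAs of the translation machinery often begin with a C followed by pyrimidines, the terminal oligopyrimidine (TOP) motif through which mTOR and LARP1 control their translation. Promoters of RefSeq (GRCh38.p14) were matched by symbol to 41 of the 49 tested members. The 8 without an entry were EIF2S2, EIF3A, EIF3CL, EIF3E, EIF3G, EIF3H, EIF3L and EIF4EBP1. Most of them are eIF3 genes, so the shares below leave out much of that complex. The windows below hold 18 bases before and 12 bases from the annotated start. Capitals mark an unbroken run of C and T that begins with C at the first transcribed base. Genes with several annotated starts were counted where any of them had the feature. A run of at least 5 bases was present in these 10 members, of which EIF2S3B has another start, a few bases downstream, without one.
EIF2A: ctctcacccgagcggtttCTCTTTCCggga
EIF2D: cctggtttccagccgggcCCTTTTCgcggc
EIF2S3: gccggggtgatttccttcCTCTTTTggcaa
EIF2S3B: gccggggtgactttcttcCTCTTTTggcaa
EIF3D: gctgcgcgcgcatgtttcCTCTTTTCCTgg
EIF3F: catttccgcttccgcctcCTTCTTTCTCga
EIF3K: cgtttccgtttccaccacCTCTTCCTgttc
EIF3M: gtcgcgcggcccagttccCTTTTCCggtcg
EIF4A2: gtggttgggcgccgctgtCTTTTCagtcgg
EIF4B: tgattgcctcatccgggtCTTTTgcgttct

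The 3 members past both thresholds had no such run. Their windows are given with those of EIF3J, also without one, and of EIF4A1, the abundant helicase gene, whose run is shorter.
EIF4G1: ggatctgtgcggggagccggaaatggttgt
EIF2B3: gccattgggctgtcagtcagaggcggcgtg
EIF4EBP2: tggctcccgccttcgcccgcttccggtcgt
EIF3J: actcacctccgccgtgctaactcctcgcta
EIF4A1: gataggcgggcactccgcCCTagtttctaa

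The 10 members with a run were 24.4% of the 41, where 7.12% of the 11862 tested genes with a promoter entry and 4.07% of all 35116 promoter entries had one. Of the 10, 2 rose (EIF4B and EIF3F), 5 fell and 3 did not pass the test, with log2 fold changes from -0.56 to 0.35 and a median of -0.22. The 5 that fell hold both EIF2S3 and its near copy EIF2S3B, whose reads cannot be told apart with certainty. Of the 31 without, 3 rose, 17 fell and 11 did not pass, with log2 fold changes from -1.19 to 1.08 and a median of -0.36. Of the 834 other tested genes with a run, 333 rose and 209 fell (25.1%), with a median of 0.10. Of the 11018 tested genes without one, 3614 rose and 3600 fell (32.7%), with a median of -0.01. These counts are of annotated starts, and the starts used in SK-OV3 cells were not measured.

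**Figure D4:**
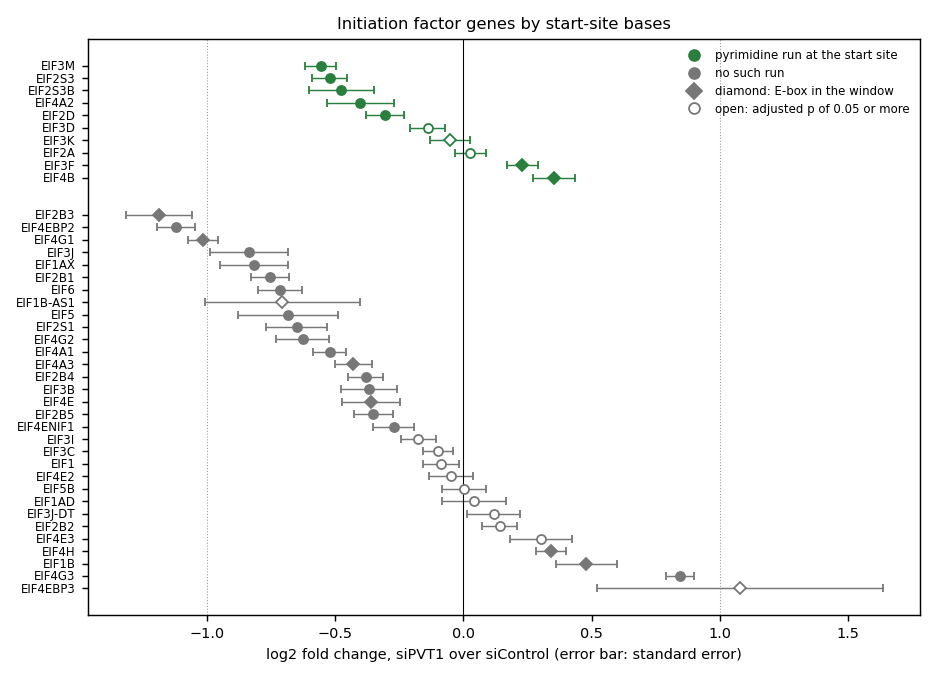
Log2 fold changes (siPVT1 over siControl) of the 41 members with a promoter entry, with standard errors, for those with a pyrimidine run at the start (green) and without (grey); diamonds hold an E-box and open symbols did not pass the test. The green points lie between -0.56 and 0.35, inside the range of the grey ones.

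The E-box, CACGTG, which reads the same on both strands and is bound by MYC with MAX and by USF factors, was searched from 250 bases before to 50 after the start. It was found in 11 of 41 members (26.8%), where 12.1% of the same 11862 tested genes and 7.26% of all entries held it. These were EIF1B, EIF1B-AS1 (the same site, since both starts lie close together and point away from each other), EIF2B3, EIF3F, EIF3K, EIF4A3, EIF4B, EIF4E, EIF4EBP3, EIF4G1 and EIF4H. Of the 11, 4 rose, 4 fell (36.4%), EIF4G1 and EIF2B3 among them, and 3 did not pass the test. Of all 1438 tested genes with an E-box, 430 rose and 528 fell (36.7%), so the share of members that fell was close to that background. Of the 30 members without an E-box, 1 rose, 18 fell (60%) and 11 did not pass the test. Of all 10424 tested genes without one, 3519 rose and 3286 fell (31.5%). The median log2 fold change was -0.05 in members with an E-box and -0.36 in the 30 without, an order opposite to that over all tested genes (-0.08 with and 0.0043 without). MYC itself fell (log2 fold change -1.01, standard error 0.0546), and its part in these values was not tested. The 250 bases before the start are given for EIF4G1 (chr3:184314356-184314605, plus strand), for the 1 of its 3 annotated starts that has E-boxes, with these in capitals, beginning at positions -144 and -67 from the start, for EIF2B3 (chr1:44986596-44986845, minus strand), with 1 that begins at -179, and for EIF4B (chr12:53006206-53006455, plus strand), with 1 that begins at -22. They stand for 2 members that fell and 1 that rose.
EIF4G1: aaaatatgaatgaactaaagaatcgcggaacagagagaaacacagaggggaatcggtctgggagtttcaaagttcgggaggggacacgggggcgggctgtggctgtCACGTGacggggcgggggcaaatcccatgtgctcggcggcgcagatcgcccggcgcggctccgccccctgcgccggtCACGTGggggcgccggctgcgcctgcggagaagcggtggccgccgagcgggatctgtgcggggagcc
EIF2B3: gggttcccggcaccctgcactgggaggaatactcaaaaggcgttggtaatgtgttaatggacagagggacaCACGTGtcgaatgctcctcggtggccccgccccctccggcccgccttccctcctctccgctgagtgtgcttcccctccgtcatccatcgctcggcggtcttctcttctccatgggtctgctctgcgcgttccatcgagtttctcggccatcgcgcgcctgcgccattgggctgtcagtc
EIF4B: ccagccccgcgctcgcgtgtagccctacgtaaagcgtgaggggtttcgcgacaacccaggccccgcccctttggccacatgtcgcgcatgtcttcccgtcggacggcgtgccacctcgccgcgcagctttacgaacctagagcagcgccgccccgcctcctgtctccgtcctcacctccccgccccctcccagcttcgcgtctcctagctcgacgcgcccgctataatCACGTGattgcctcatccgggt

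Beyond the factors themselves, 50 genes of translation control, elongation and termination were read from the same fit. Of these, 22 were lower, 11 higher and 17 did not pass the test, with a median log2 fold change of -0.10. These counts, and those of the lists that follow, stand beside 28.4% lower and 29.5% higher over all genes tested. Among the 9 genes of eIF2 kinases and phosphatase, 3 rose, 1 fell and 5 did not pass the test, with a median of 0.15. The 1 that fell was PPP1R15A, the stress-induced subunit (GADD34) that directs phosphatase to eIF2. It had 8531, 7533 and 8400 normalized counts in siControl and 3244, 2816 and 2728 in siPVT1, far apart. Its fall was the steepest of the 50 (log2 fold change -1.48, standard error 0.0851, edgeR's Benjamini-Hochberg adjusted p = 4.95e-06). Its constitutive relative PPP1R15B rose, from 3852, 3723 and 3843 to 5001, 5143 and 4962 counts (log2 fold change 0.40, standard error 0.0528). The others of this list that rose were EIF2AK3 (0.35) and PPP1CB (0.24).

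Among the 19 genes that control eIF4F, 11 fell and 5 rose, against 28.4% and 29.5% of all genes tested, so that the higher count was near the background. LARP1, the TOP mRNA-binding protein, had 19247, 20214 and 19453 normalized counts in siControl and 8940, 9312 and 10542 in siPVT1. Its level fell by 51.1% (log2 fold change -1.03, standard error 0.0729). DDIT4, an inhibitor of mTORC1 induced by stress, rose from 2761, 2589 and 2749 to 13319, 11426 and 7571 counts, with siPVT1 replicate 3 again nearest to siControl (log2 fold change 1.996, standard error 0.183). PAIP2, a repressor of poly(A)-binding protein, rose from 2169, 1956 and 2135 to 4567, 4973 and 4998, with the libraries close within each group (1.22, standard error 0.0682). Chosen after their values were seen, MTOR (-0.87), its partners MLST8 (-0.85) and RPTOR (-0.32) and the substrate AKT1S1 (-0.82) all fell. PDCD4, an inhibitor of eIF4A, rose (0.83). The 3 genes of this list that did not pass the test were RPS6KB1 (0.12), TSC2 (-0.18) and PABPC1 (0.025).

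The remaining lists held 6 to 9 genes each, to be read against the same 28.4% lower and 29.5% higher. Of 7 genes of scanning and reinitiation, 3 fell and 1 rose, from the helicase DHX29 (2429, 2338 and 2352 against 1218, 1361 and 1525 normalized counts, log2 fold change -0.79, standard error 0.0858) to the eIF5 mimic BZW1 (19087, 17863 and 19180 against 24401, 24809 and 25648, 0.42, standard error 0.0566). In both genes the groups stood apart. Of 9 elongation genes, 4 fell and 2 rose. EEF1E1, a component of the tRNA synthetase complex, was the lowest (1048, 909 and 1036 against 478, 589 and 752, log2 fold change -0.72, standard error 0.153). EEF1A2, the elongation factor isoform typical of muscle and neurons, rose from 10.5, 9.09 and 10.2 to 117, 91.8 and 73.3 counts (3.22, standard error 0.257), a large fold at low abundance. Of 6 termination and recycling genes, 3 fell and none rose. ABCE1, which splits ribosomes after termination, had 8429, 7649 and 8599 normalized counts in siControl and 2665, 3151 and 4232 in siPVT1, and all silenced libraries were far below the control range. Its log2 fold change was -1.30 (standard error 0.153, edgeR quasi-likelihood test, Benjamini-Hochberg adjusted p = 0.000171). HBS1L, which rescues stalled ribosomes, was the highest of that list and did not pass (2750, 2459 and 2648 against 2654, 2699 and 2907, 0.07, standard error 0.0679, lower with total count scaling).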

How the data were processed

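The authors prepared mRNA libraries with a KAPA mRNA HyperPrep kit and sequenced 75-base single-end reads. The submitters' processing notes name bcl2fastq 2.20.0, STAR 2.7.3a, Salmon 0.14.1 and DESeq2 1.28.1, with GRCh38. The strand setting is not given in the sources used here. The authors deposited estimated counts in whole numbers, 1 row a gene symbol, with no normalization applied. All 6 columns were matched to samples by label, and no row named no gene.

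From these counts, the quasi-likelihood test of edgeR 4.0.16 (in R 4.3.3) was fitted, with TMM factors from all genes and the siRNA as the only term, on the 19008 genes that had 5 or more normalized counts in 3 or more libraries. P-values were adjusted by Benjamini-Hochberg over all genes tested, and a gene was called at an adjusted p under 0.05. DESeq2 1.42.0 was an alternative. The other alternatives were its size factors in edgeR, total count scaling, no filter, filterByExpr, a test against a 2-fold change, leaving out each library, the replicate number as a block and, added after the data were seen, TMM after the filter. Normalized counts are counts per library scaled by TMM. For the exact permutation tests (two-sided), 3 libraries against 3 allow no p under 0.1. Libraries of the same group differed beyond sampling noise (chi-square per degree of freedom 1.79 to 6.20 in siControl, 9.44 to 50.5 in siPVT1), so each was 1 sample. On simulated data in 19008 genes with 200 changed, edgeR called 155 of them, all 116 with at least 100 counts, and 21 unchanged genes. In the data 5612 genes were called higher and 5395 lower, and a case with as many was not tested. The calls among the 200 were not split by fold change, so detection of changes as small as those of most members was not tested.

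The members, complexes and gene lists were chosen with earlier results of these data known. Values in every library were given for members past both thresholds (adjusted p under 0.05 and absolute log2 fold change of at least 1), for the highest and lowest of each complex, and for EIF4E and its 3 binding proteins. Values by library were also given for EIF4A2, EIF5, EIF3CL and EIF1B-AS1, chosen after their values were seen. Of the other genes, those past both thresholds and the extremes of each list were given. Lengths and coordinates came from GENCODE v44 on GRCh38 (the authors used GENCODE 35), with the length of the Ensembl canonical transcript, which need not be the isoform expressed. Pseudogene rows (69) were left out by the rule.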

Additional observations from a re-analysis of the deposited data

How the results depend on the processing

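Of the 31 members called, 24 kept their call under 13 alternatives, which leave out the test against a 2-fold change. None of the 31 changed direction. The count of members that fell was 26, and 21 to 33 under these alternatives (21 to 30 with a library left out), and the count that rose was 5, and 4 to 7 (5 to 7). The median of the members moved from -0.30 to -0.45 with total count scaling, where the median of all genes moved to -0.15, and was -0.34 to -0.28 with a library left out. The 3 members past both thresholds fell to 0 when tested against a 2-fold change, and were 3 to 4 with a library left out. The fourth was EIF3J without siPVT1 replicate 3 (-1.07) and EIF1B-AS1 without siPVT1 replicate 1 (-1.09). PVT1 ranged from -0.88 to -0.62. The other pathway genes that rose numbered 9 to 13 and those that fell 19 to 27.

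Same-numbered libraries did not deviate together (correlations of deviations -0.041, 0.038 and 0.0037), so the numbers were not taken as pairs. With the replicate block, EIF4EBP3 passed both thresholds (1.18, edgeR's adjusted p = 0.0288), so that 1 member rose past both, and no member lost its call.

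Calls were lost with a library left out for EIF3B, EIF3G, EIF4A2 (adjusted p = 0.0603 to 0.0827 by edgeR), EIF4E, EIF4ENIF1 (0.0771) and EIF5, and with total count scaling for EIF3F. Near the threshold, EIF3I passed with DESeq2 (adjusted p = 0.0214) and with 6 other settings. Signs turned only in genes that had not passed the test. With total count scaling, values were -0.11 for EIF1AD, -0.12 for EIF2A, -0.0079 for EIF2B2, -0.041 for EIF3H, -0.031 for EIF3J-DT, -0.046 for EIF3L, -0.15 for EIF5B and -0.076 for HBS1L. With a library left out, values ran from -0.13 to 0.14 for EIF1AD, from -0.021 to 0.044 for EIF2A, from -0.95 to 0.10 for EIF3CL and from -0.11 to 0.044 for EIF5B. EIF5B was -0.011 with DESeq2, its size factors and TMM after the filter, and -0.0024 with the block. The causes were not tested. Low counts limit what can be said of EIF4EBP3 and EIF1B-AS1.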

Other observations

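Of the 69 pseudogene rows left out by the rule, 8 reached 100 raw counts in at least 1 library, and Salmon divides reads between such near copies and their parent genes by estimation. EIF3FP3 had 582, 506 and 544 raw counts in siControl and 578, 569 and 650 in siPVT1, and EIF3F with it rose from 5587 ± 228 to 6567 ± 209.8 normalized counts (SD, n = 3), the log2 ratio staying at 0.23. EIF4BP3 and EIF4BP6 together with EIF4B went from 18853 ± 1079 to 24136 ± 2393 (log2 ratio 0.36). EIF2S2P4 with EIF2S2 went from 10519 ± 539 to 8732 ± 523 (-0.27), and EIF1AXP1 with EIF1AX from 5332 ± 361 to 3049 ± 619 (-0.81). In each of these 4 sums the groups did not overlap, and the ratio was close to the fitted change of the parent gene alone (0.23, 0.35, -0.26 and -0.81). EIF4A1P10 had 385, 391 and 488 raw counts in siControl and 245, 233 and 291 in siPVT1. EIF4EP2 had 143, 142 and 233 in siControl and 111, 93 and 203 in siPVT1. EIF4HP1 had 277, 169 and 291 in siControl and 221, 322 and 265 in siPVT1. Sums of EIF4A1P10, EIF4EP2 and EIF4HP1 with their parent genes were not made.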
